A study of Mus musculus with 2 samples.

Results

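The cells described here are 670 barcodes of mouse testis with a high share of steroid synthesis transcripts, taken as Leydig-like cells. A barcode was included when it had 200 or more genes, at most 20% mitochondrial counts, and 10 or more summed counts of Insl3, Cyp17a1, Cyp11a1, Hsd3b6 and Star that made up at least 0.5% of its total. Of the 33213 barcodes in the series, 29008 passed the filter on genes and mitochondrial counts. The rule then chose 326 of 15139 kept barcodes from wild type (WT) and 344 of 13869 from the Nsun7 knockout.

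Testes of adult mice were minced, digested with enzymes and strained, and the poly(A) RNA of single cells was sequenced in 1 WT library and 1 library from Nsun7 knockout mice. The labels do not say how many animals went into a library, which part of Nsun7 is missing, or whether the loss is limited to a cell type. Nsun7 encodes a relative of the RNA 5-methylcytosine methyltransferases, and the series title calls it catalytically inactive and ties it to the sperm flagellum. With 1 library per genotype there is no replicate check, no difference was tested, and all intervals are 95% intervals for counting error only.

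Leydig cells lie between the seminiferous tubules and make testosterone under the control of luteinizing hormone. Star delivers cholesterol to the inner mitochondrial membrane, Cyp11a1 cleaves its side chain, and Hsd3b enzymes, Cyp17a1 and Hsd17b3 carry the product on to testosterone. Insl3 is a peptide hormone that differentiated Leydig cells secrete.

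The members made up 2.15% of kept WT barcodes (1.93% to 2.40%, Clopper-Pearson) and 2.48% of kept knockout barcodes (2.23% to 2.75%). With at most 10% mitochondrial counts and at least 500 genes the order turned, to 1.36% and 0.987%. How well Leydig cells were recovered in each library was not measured, and a lower share of germ cells cannot be told apart from a higher number of Leydig cells. Members had a median of 10437.5 counts and 3359 genes in WT, and of 14233.5 counts and 3825 genes in the knockout library. The other kept barcodes had medians of 8668 and 11962 counts. Mitochondrial genes gave a median of 9.60% of a member's counts in WT and 10.9% in the knockout library, against 0.984% and 0.216% in the other kept barcodes. Scrublet called 17 WT members (5.21%) and 19 knockout members (5.52%) doublets, near the 4.04% and 4.55% of all kept barcodes. The matrices shared 2168 barcode names, of which 1 was a member in both.

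The steroid gene share that chose the members had few barcodes around its limit. Among kept barcodes, 14789 in WT and 13500 in the knockout library lay under 0.25%, and 22 and 23 lay between 0.25% and the limit. Only 8 and 4 lay between the limit and 0.75%. The members just inside the limit had 0.530% and 0.546% in WT and 0.529% and 0.542% in the knockout library, and the barcodes just outside had 0.473% and 0.470%. The median member had 2.35% in WT and 2.62% in the knockout library, and the highest 4.51% and 4.24%. All 5 genes were present in 246 WT and 287 knockout members, and the fewest present in any member was 3.

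**Figure D1:**
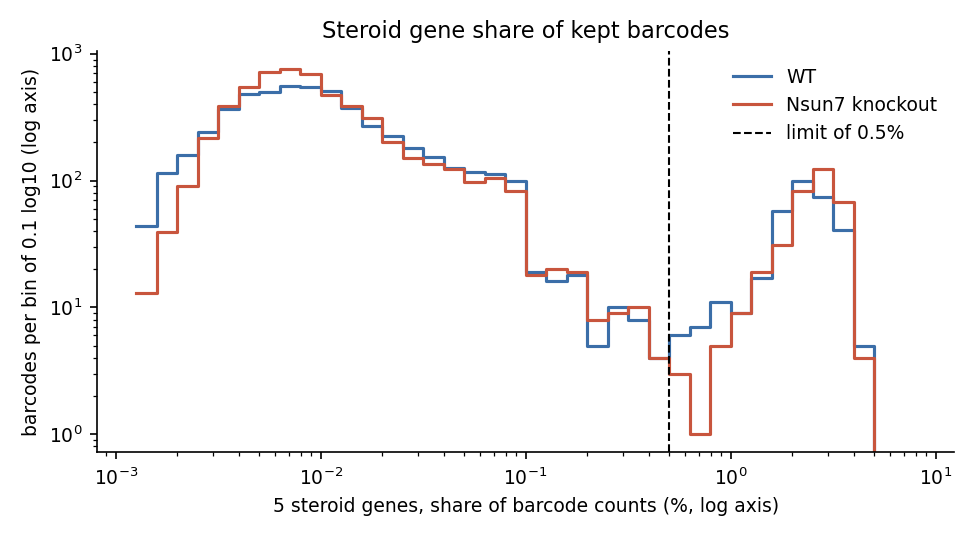
Number of kept barcodes (log axis) by the share of their counts from Insl3, Cyp17a1, Cyp11a1, Hsd3b6 and Star (percent, log axis) in the WT and the Nsun7 knockout library; barcodes at a share under 0.001% are not drawn. Both libraries have a second peak between 1% and 5%, to the right of the dashed limit at 0.5%.

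The 5 genes of the rule are given as levels only, in CPM, counts per 1000000 of the counts summed over a library's members. Cyp17a1, the enzyme that turns pregnenolone and progesterone into androgens, stood at 11596 CPM in WT and 13359 CPM in knockout members. Insl3 stood at 4323 and 4959 CPM, and Cyp11a1 at 2455 and 2735 CPM. Star stood at 2238 and 2800 CPM, and Hsd3b6, an adult-type 3-beta-hydroxysteroid dehydrogenase, at 2571 and 2645 CPM. The sum of these genes chose the members, so no difference between the libraries is read from their levels. The levels also move with the cut. With at least 500 genes and at most 10% mitochondrial counts, the log2 ratio of knockout over WT fell from 0.198 to 0.064 for Insl3. For Cyp11a1 it fell from 0.156 to 0.0095, and for Star it rose from 0.323 to 0.418. Hsd3b6 was lower in the knockout library at a share limit of 1% or 2%, under that filter, or with a free RNA estimate subtracted.

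Leydig markers that the rule did not use were checked next. Each barcode was thinned to 1000 counts, so that depth was equal, and the members were set beside macrophage barcodes (152 WT and 123 knockout barcodes, chosen by C1q genes, with medians of 2089 and 2162 counts) and condensing spermatid barcodes (5022 and 8632, chosen by protamine and transition protein genes, with medians of 12453 and 15451 counts). Hsd17b3, the last enzyme on the way to testosterone, had a count in 56.1% of WT and 65.1% of knockout members after thinning, and in 95.4% and 98.8% without it. The same gene had a count in 1.32% and 0.813% of thinned macrophage barcodes and in 0.199% and 0.301% of thinned spermatid barcodes. Lhcgr, the receptor of luteinizing hormone, had a count in 27.0% and 35.2% of thinned members (82.5% and 89.8% without thinning), in 0% of thinned macrophage barcodes (which allows up to 2.40% and 2.95%), and in 0.0199% and 0.104% of spermatid barcodes. Nr5a1, the transcription factor SF-1, had a count in 15.03% and 21.2% of thinned members (78.2% and 82.6% without thinning). It had one in 0.658% and 0% of thinned macrophage barcodes and in 0.239% and 0.220% of thinned spermatid barcodes. Ptgds, a prostaglandin D synthase, had a count in 92.0% and 95.9% of thinned members (99.4% and 99.1% without thinning). It had one in 7.24% and 2.44% of thinned macrophage barcodes and in 2.03% and 1.58% of thinned spermatid barcodes. Fdx1 had a count in 67.2% and 69.8% of thinned members, 1.97% and 3.25% of macrophage and 0.657% and 0.846% of spermatid barcodes. Scarb1 had one in 36.2% and 35.8% of thinned members, 4.61% and 3.25% of macrophage and 3.09% and 4.10% of spermatid barcodes. Each marker was present in a larger share of members than of both other groups, and the label Leydig-like was kept. Sertoli, stroma and peritubular myoid cells were not compared here.

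The targeted transcript was barely present in these cells. Nsun7 (chr5:66259897-66298026, plus strand) had 88 counts in WT members, 19.4 CPM (15.6 to 23.9, exact Poisson), and 17 counts in knockout members, 3.04 CPM (1.77 to 4.86). The other kept barcodes stood at 177 and 42.0 CPM. Members were thus at 10.9% and 7.23% of the level of the other barcodes. After thinning, Nsun7 had a count in 0.920% of WT and 0.291% of knockout members (16.9% and 4.36% without thinning), against 13.3% and 4.48% of spermatid barcodes (72.6% and 47.6% without thinning). The shares in thinned members were under those of thinned macrophage barcodes, 7.24% and 0.813%. They were not read as expression by Leydig-like cells, and the origin of these counts was not tested. The labels do not say which part of the gene is missing, so counts left in the knockout library do not check the deletion.

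Of 18 genes of stem, progenitor and fetal Leydig cells, 6 reached 10 CPM, and 5 of these were at least 4 times higher in the members than in the other kept barcodes in both libraries. The list summed to 758 CPM in WT and 782 CPM in knockout members, against 47.4 and 29.9 CPM in the other barcodes. Most of it was Cd81, a membrane protein of many cell types, at 405 and 482 CPM. Dlk1, Nes, Thbs2 and Mc2r had no count in any member of either library. Pdgfra, a receptor of Leydig progenitors, stood at 66.6 and 56.4 CPM, and Nr2f2 (COUP-TFII) at 73.7 and 67.3 CPM. The adult Leydig list holds Insl3 and Hsd3b6, which chose the members. Of its 14 genes outside the rule, 12 reached 10 CPM, and all 12 were at least 4 times higher in the members than in the other kept barcodes in both libraries.

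Beyond the rule, many genes stood higher in the members than in the other kept barcodes. In both libraries, 2758 genes reached 50 CPM in the members. Of these, 981 (35.6%) exceeded the other kept barcodes by 4 times or more in both libraries, and 254 (9.21%) were lower by as much. The members were chosen by expression, so these counts describe the cells and test nothing. The 15 genes with the highest ratios, taking the lower of the 2 libraries, were Jak3, Fabp3, Lcn2, Ephx1, Bhmt, Akr1cl, Agt, Ptgds, Hsd3b1, Vcam1, Gstm1, Gsta3, Aldh1a1, Klk1b21 and Fxyd1. Fabp3, which carries fatty acids inside the cell, stood at 5620 CPM in WT and 5837 CPM in knockout members, against 12.4 and 13.4 CPM in the other barcodes. Lcn2, a secreted lipocalin, stood at 5249 and 5578 CPM against 13.8 and 15.6 CPM. Several of the 15 handle reactive or foreign compounds. Ephx1, an epoxide hydrolase, stood at 3117 and 3393 CPM in members, and Gstm1, a glutathione transferase, at 12128 and 11828 CPM. Aldh1a1, which makes retinoic acid from retinal, stood at 6120 and 5146 CPM. Bhmt, an enzyme of methionine metabolism known mainly from liver and kidney, stood at 3061 and 2401 CPM. Agt, the precursor of angiotensin, stood at 3795 and 3506 CPM. Vcam1, an adhesion molecule that binds leukocyte integrins, stood at 2591 and 2027 CPM. Klk1b21, a kallikrein-type protease, stood at 1164 and 1195 CPM, against 2.44 and 2.93 CPM in the other barcodes.

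Jak3, a kinase known from lymphocytes, headed that list with 54204 CPM in WT and 60281 CPM in knockout members, or 5.42% and 6.03% of all their counts. In the GENCODE M21 annotation of GRCm38, Insl3 (chr8:71689214-71690575, plus strand) lies inside the span of Jak3 (chr8:71676296-71690575, plus strand). The last exon of transcript Jak3-201 and the last exon of Insl3 have the same coordinates, chr8:71690172-71690575, 404 bases. Reads from this exon cannot be told apart by gene, and how the counting treated them is not given in the sources used here. Members held 12.5 Jak3 counts for each Insl3 count in WT (interval 12.4 to 12.7) and 12.2 in knockout members (interval 12.01 to 12.3). The other kept barcodes, where both genes were low, held 12.8 and 15.8. Across members of 1 library, the CPM of Jak3 and Insl3 had a Pearson correlation of 0.86 in WT (326 barcodes) and 0.83 in the knockout library (344 barcodes). Jak3 and Cyp17a1 had 0.21 and 0.15 over the same barcodes. These are descriptions over barcodes that share a library and, for Jak3 and Insl3, an exon. The share of a member's counts given to Insl3 is therefore uncertain, and neither gene's level can be read alone.

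Promoter sequences were read from RefSeq (GRCm38.p6), and 5 that hold a searched pattern are shown to let it be seen in place. The pattern searched was CAAGGNC on both strands, a core of the motif that Nr5a1 recognises in promoters of steroid synthesis genes, over the 250 bases before each start. It was found in 15.03% of all 32851 promoter windows of that length and in 19.7% of 1213 windows of genes at least 4 times higher in members. Of the 15 genes named above, 14 had an entry, with 16 windows, and 8 of these windows held it. Of 4 windows of 3 genes of the rule, 1 held it, that of Insl3. No match was found before Cyp11a1, Lhcgr, Hsd17b3, Fabp3, Lcn2, Gstm1, Gsta3 or Fxyd1. A match is only a match of letters, and binding was not measured. Stretches of 150 bases are shown for Insl3 (chr8:71689064-71689213, plus strand), Akr1cl (chr1:65032760-65032909, minus strand), Ptgds (chr2:25469843-25469992, minus strand), Klk1b21 (chr7:44102142-44102291, plus strand) and Fdx1 (chr9:51963603-51963752, minus strand). A stretch ends at the start, or earlier where an annotated untranslated region begins within the 250 bases. Each runs 5′ to 3′ on the gene's strand, with matches in capitals (GNCCTTG is the same pattern on the other strand).
Insl3: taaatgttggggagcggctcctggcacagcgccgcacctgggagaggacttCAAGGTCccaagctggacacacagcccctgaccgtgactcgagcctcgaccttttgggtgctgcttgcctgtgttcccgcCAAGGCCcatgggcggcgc
Akr1cl: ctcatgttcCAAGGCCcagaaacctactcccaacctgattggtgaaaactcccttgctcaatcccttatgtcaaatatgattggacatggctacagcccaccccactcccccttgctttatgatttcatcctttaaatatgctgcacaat
Ptgds: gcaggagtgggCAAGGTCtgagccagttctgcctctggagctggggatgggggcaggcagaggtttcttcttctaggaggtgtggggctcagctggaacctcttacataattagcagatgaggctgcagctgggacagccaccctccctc
Klk1b21: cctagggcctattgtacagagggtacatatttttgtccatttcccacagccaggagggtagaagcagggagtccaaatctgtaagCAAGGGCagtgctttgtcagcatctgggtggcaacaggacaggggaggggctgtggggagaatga
Fdx1: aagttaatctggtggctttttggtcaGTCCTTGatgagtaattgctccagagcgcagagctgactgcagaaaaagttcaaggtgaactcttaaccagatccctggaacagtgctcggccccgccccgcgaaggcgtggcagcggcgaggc
Insl3 holds 2 matches in the stretch shown and the other stretches 1 each, while Akr1cl, Ptgds and Klk1b21 hold 2 each in their full 250 bases. The Ptgds stretch lies inside the span of Ptgds in the GENCODE M21 annotation, chr2:25466709-25470046. Akr1cl, an aldo-keto reductase, stood at 4762 CPM in WT and 5140 CPM in knockout members and had a count in 99.1% and 98.5% of thinned members, against 0.996% and 1.25% of thinned spermatid barcodes. Fdx1, the ferredoxin that passes electrons to Cyp11a1, was at 1144 and 1303 CPM.

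The members differed among themselves in the levels of their 3-beta-hydroxysteroid dehydrogenases. Hsd3b6 (chr3:98805504-98814443, minus strand) and Hsd3b1 (chr3:98852194-98859794, minus strand) are neighbouring paralogues that carry out the same step. Among members with 5000 or more counts, where the mean level would give about 12.9 Hsd3b6 counts or more, 44 of 261 in WT (16.9%, 12.5% to 21.96%) and 38 of 296 in the knockout library (12.8%, 9.25% to 17.2%) had no Hsd3b6 count. Of these, 35 (79.5%) in WT and 34 (89.5%) in the knockout library had 1000 CPM or more of Hsd3b1. Among members with Hsd3b6, 114 of 217 (52.5%) and 112 of 258 (43.4%) did. In turn, 18 WT and 20 knockout members had no Hsd3b1 count, and only 1 WT member lacked both genes. Most members, 200 in WT and 238 in the knockout library, carried both.

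Depth and doublet calls were set beside this split. Members without Hsd3b6 had median counts of 10288 in WT and 19342 in the knockout library, against 14286 and 16275.5 in members with it, so depth was lower in 1 library and higher in the other. Scrublet called doublets among 1 WT and 2 knockout members without Hsd3b6 and among 12 and 14 with it. Over all 326 WT and 344 knockout members, the CPM of the 2 genes had a Spearman correlation of -0.48 in WT and -0.41 in the knockout library. In the annotated transcripts, none of the 50-base stretches in the last 500 bases of either gene occurred in the other gene's transcripts, while 38 such stretches were shared over the whole transcripts, 2.10% to 2.55% of each. This split was noticed in the data, uses a gene of the rule, and has no test. The part of depth, doublets or read assignment in it was not tested either.

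The paired windows of 150 bases before the starts of Hsd3b6 (chr3:98814444-98814593, minus strand) and Hsd3b1 (chr3:98859795-98859944, minus strand) are shown, 5′ to 3′ on the gene's strand. They were chosen because the levels of these 2 genes ran against each other among members, most of which carried both. Neither holds CAAGGNC in its 250 bases, so nothing is in capitals.
Hsd3b6: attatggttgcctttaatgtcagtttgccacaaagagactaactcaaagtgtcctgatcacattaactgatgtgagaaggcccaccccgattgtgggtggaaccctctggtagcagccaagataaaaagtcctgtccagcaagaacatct
Hsd3b1: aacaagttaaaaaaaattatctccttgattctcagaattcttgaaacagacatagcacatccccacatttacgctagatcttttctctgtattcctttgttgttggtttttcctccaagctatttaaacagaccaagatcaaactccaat
Members without Hsd3b6 differed from the others in further genes. Over 2747 genes, 6 stood higher by 2 times or more in them in both libraries, and 6 stood lower by as much. The higher ones were Hsd3b1, Inha, Gstm6, Sv2c, Pgbd5 and Paqr9. Hsd3b1 stood at 6496 CPM in WT members without Hsd3b6 and 2027 CPM in WT members with it, and at 4143 and 1586 CPM in the knockout library. Inha, the inhibin alpha subunit, stood at 473 and 101 CPM in WT and at 191 and 91.8 CPM in the knockout library. The lower ones were Dcn, Mylk, Col1a2, Aldh3a1, Cd63 and Ecm1. Dcn, a proteoglycan of connective tissue, stood at 21.1 CPM without Hsd3b6 and 133 CPM with it in WT, and at 33.9 and 124 CPM in the knockout library. Dcn and Col1a2 are also stroma markers, and their part in this split was not tested. Agt was at 7193 and 3260 CPM in WT and at 6097 and 3092 CPM in the knockout library, and Cyp11a1 at 3901 and 2223 CPM and at 4176 and 2513 CPM. Cyp17a1 was nearly level, at 11713 and 11625 CPM in WT and at 13858 and 13351 CPM in the knockout library. Star went the other way, at 1607 and 2360 CPM in WT and at 2074 and 2930 CPM in the knockout library.

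**Figure D2:**
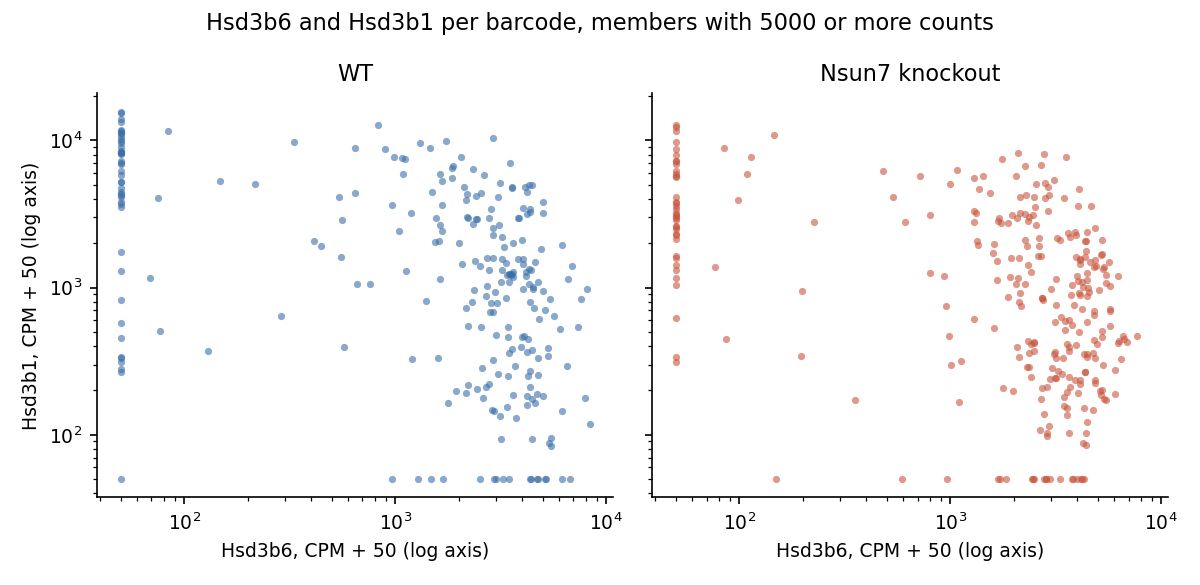
Hsd3b6 level (x axis, CPM + 50, log axis) against Hsd3b1 level (y axis, CPM + 50, log axis) in each member with 5000 or more counts, WT on the left (261 barcodes) and Nsun7 knockout on the right (296 barcodes). The column of points at the left edge is the 44 WT and 38 knockout members with no Hsd3b6 count, most of them high in Hsd3b1.

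Other genes varied among members too. The variance of thinned counts divided by their mean, which is near 1 for counting error alone, had a median of 1.03 over 2758 genes in both libraries. The 4 genes with the highest values were Tnp1 (13.1 in WT and 16.9 in the knockout library), Prm1 (12.6 and 18.1), Prm2 (18.4 and 8.02) and Tnp2 (7.50 and 8.37), which encode the transition proteins and protamines of condensing sperm nuclei. Jak3, Lcn2, Hsd3b1, Agt, Ptgds and Aldh1a1 came next among named genes, with Lcn2 at 4.55 and 4.65 and Agt at 4.36 and 3.68.

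Protamine or transition protein transcripts were present in every member. The sum of 14 elongating spermatid markers was 14401 CPM in WT and 19356 CPM in knockout members, against 95970 and 205266 CPM in the other kept barcodes, which puts members at 15.01% and 9.43% of that level. The 10 members with the most protamine and transition protein counts held 42.4% of these counts in WT and 43.9% in the knockout library. The 16 spermatocyte markers summed to 965 and 350.2 CPM, and the 14 round spermatid markers to 391 and 332.0 CPM. How much came from free RNA, and how much from cells caught together, was not tested.

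Markers of other somatic cells were present at differing levels. Macrophage markers summed to 283 CPM in WT and 80.7 CPM in knockout members, and 10 members held 83.0% of the C1qa, C1qb, C1qc and Lyz2 counts in WT. These 4 genes had no count in 283 of 326 WT and 316 of 344 knockout members. The 11 endothelial markers summed to 11.2 and 8.04 CPM, and Tie1 was at 0. The 17 Sertoli markers summed to 3432 and 3114 CPM, with 4 of the 8 measured at least 4 times over the other barcodes. Most of this sum was Clu, at 2295 and 2107 CPM, and Ctsl, at 570 and 508 CPM, both made by many cell types. Aard stood at 199 and 219 CPM and Amhr2 at 174 and 169 CPM, while Amh was at 0 and Sox9 under 10 CPM. The 15 stroma markers summed to 2103 and 2189 CPM, with 5 of the 10 measured at least 4 times over the other barcodes, and only 13 WT and 4 knockout members had none of their counts. Most of the stroma sum was Igfbp7, a secreted binding protein, at 1445 and 1535 CPM, while Lum was at 0.

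Members were then split by steroid gene share into 4 bins of equal size, with the 5 genes of the rule left out of the total. The bin medians ran from a median of 1.41% to 3.20% in WT and from 1.78% to 3.38% in the knockout library. Scarb1, the receptor that takes up cholesterol from lipoproteins, stood at 262 CPM in the lowest and 576 CPM in the highest bin in WT, and at 320 and 833 CPM in the knockout library. Alas1, the first enzyme of heme synthesis, stood at 483 and 851 CPM in WT and at 767 and 1416 CPM in the knockout library. Klk1b21 stood at 607 and 1495 CPM and at 779 and 1625 CPM. The immediate early gene Fos ran the other way, at 954 CPM in the lowest and 720 CPM in the highest bin in WT and at 1091 and 653 CPM in the knockout library. Bins of low share also held the most germ cell and macrophage transcripts and nearly all called doublets. Prm1 stood at 6955 CPM in the lowest and 1138 CPM in the highest WT bin, and at 13491 and 1961 CPM in the knockout library. Nsun7 stood at 44.3 and 6.33 CPM in WT and at 5.29 and 3.84 CPM in the knockout library. Called doublets numbered 13, 3, 1 and 0 from the lowest to the highest bin in WT and 15, 4, 0 and 0 in the knockout library. Not every Leydig gene followed the share. Hsd3b1 stood at 2945 CPM in the lowest and 2039 CPM in the highest WT bin, and Inha at 187 and 77.7 CPM, while in the knockout library Hsd3b1 stood at 1484 and 1970 CPM and Inha at 101 and 114 CPM. The part of other cells' transcripts in these differences was not tested.

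**Figure D3:**
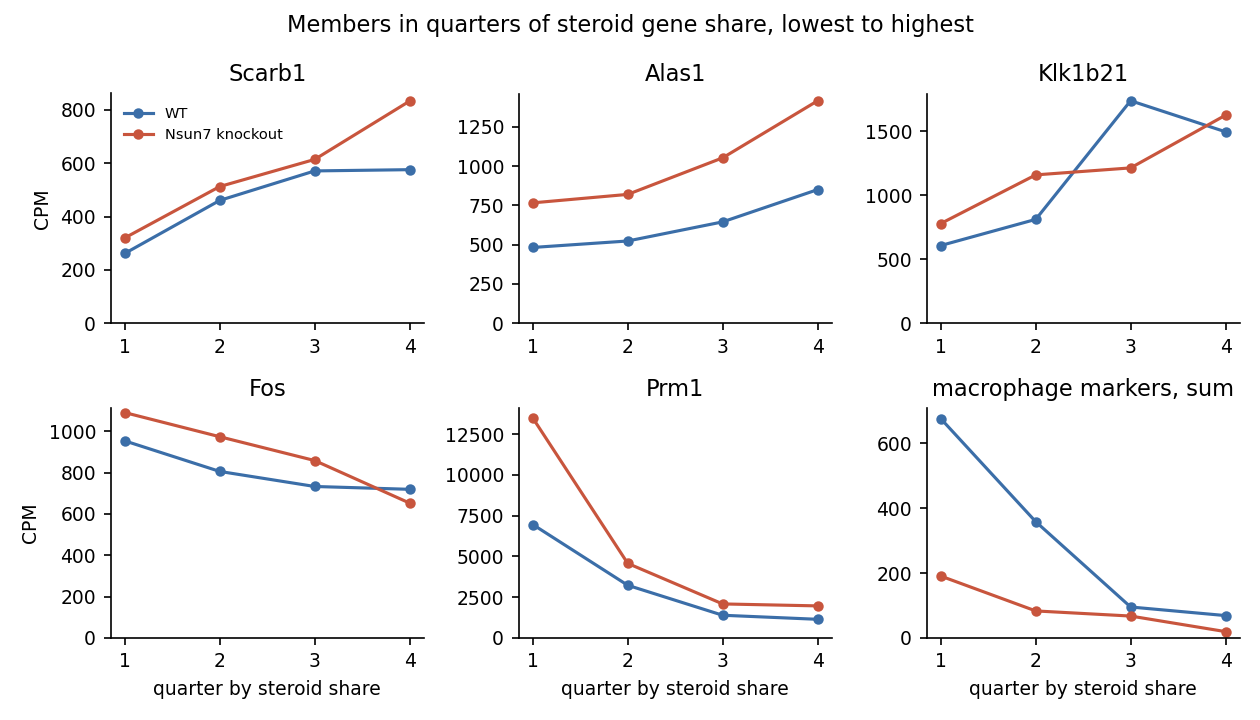
Level in CPM (y axis, from 0) of 5 genes and of the summed macrophage markers in members split into 4 bins of steroid gene share, lowest (1) to highest (4), in the WT and Nsun7 knockout library. Scarb1 and Alas1 stood higher in the highest bin than in the lowest, while Fos, Prm1 and the macrophage sum stood lower, with Prm1 at 6955 and 1138 CPM in WT.

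The comparison of knockout with WT members asked which genes differed in Leydig-like cells. Over 2957 genes with a mean level of 50 CPM or above, 1 (0.0338%) was at least 2 times higher and 26 (0.879%) were at least 2 times lower in knockout members, with 5 CPM added to both levels. These counts depend on the filters: 23 were higher and 41 lower with at least 500 genes and at most 10% mitochondrial counts per barcode, and 4 and 198 with genes from 10 CPM. Among 1180 Leydig-enriched genes, those at least 4 times higher in members than in the other barcodes and outside the rule, 1 (0.0847%, the same gene) was higher and 0 (0%) were lower, and 1170 (99.2%) lay within 1.5 times of WT. The median log2 ratio was 0.02 over these genes and -0.01 over all 2957. With the libraries scaled by trimmed means in place of totals, ratios moved by 0.10 and the median of all genes by as much, to 0.09.

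The single gene past 2-fold higher was the predicted gene Gm43305, which is Leydig-enriched, at 35.5 CPM in WT and 99.5 CPM in knockout members. It reached the mean of 50 CPM only through the knockout library. It lies outside the rule for named genes and was picked after its value was seen. Next came Etnk2, an ethanolamine kinase of phospholipid synthesis, at 65.5 CPM in WT and 132 CPM in knockout members, a ratio of 2.01 (1.76 to 2.31) without the added 5 CPM. Klf2, a zinc finger transcription factor, stood at 54.5 and 98.9 CPM. Alas1 stood at 615 CPM in WT (592 to 638) and 1014 CPM in knockout members (988 to 1041), a ratio of 1.65 (1.58 to 1.73). The other barcodes had 59.6 and 14.9 CPM. Alas1 also stood higher in bins of higher steroid gene share in both libraries, and the bins had higher median shares in the knockout library. The part of that share in the difference was not tested. Aqp2, a water channel known from the kidney collecting duct, stood at 331 and 521 CPM, a ratio of 1.58 (1.48 to 1.68). The remaining genes of the 10 highest were Fosb, Atf4, Tgm2, Meg3, Oxtr and Acvr1, all between 1.42 and 1.43 times. Atf4, a regulator of amino acid and stress responses, stood at 142 and 204 CPM, and Oxtr, the oxytocin receptor, at 69.3 and 98.4 CPM.

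The 10 lowest Leydig-enriched genes were Ccdc28b, Gpx3, Neat1, Dbp, G0s2, Gstm6, Tcf4, Inha, Myc and Grb14. Ccdc28b stood at 102 CPM in WT and 55.0 CPM in knockout members, a ratio of 0.54 (0.47 to 0.63), and it overlaps Tmem234 on the opposite strand. Gpx3, a secreted glutathione peroxidase, stood at 122 and 70.7 CPM, a ratio of 0.58 (0.51 to 0.66). Dbp, a transcription factor driven by the circadian clock, stood at 73.2 and 42.1 CPM. It is not particular to the members, with a count in 7.98% and 5.81% of thinned members and 5.26% and 5.69% of thinned macrophage barcodes. Inha stood at 154 and 106 CPM, and Gstm6 at 92.0 and 59.8 CPM. Both were also higher in members without Hsd3b6, which were 16.9% of deep members in WT and 12.8% in the knockout library. Within deep members lacking Hsd3b6, Inha went from 473 (WT) to 191 CPM (knockout), and Gstm6 from 280 to 114 CPM. Within deep members carrying it, Inha went from 101 (WT) to 91.8 CPM (knockout), and Gstm6 from 59.2 to 52.7 CPM. The part of this split in the lower levels was not tested.

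The 26 lower genes had another profile. None was Leydig-enriched, and 25 of the 26 stood in WT members at under 25% of their level in the other WT barcodes. All 26 were also lower in the other knockout barcodes, 21 of them by at least 2 times. Leaving out predicted genes, the 5 lowest were Tuba3b, Rsph1, Tuba3a, Cox8c and Lyar, genes of testis tubulin, sperm tails, testis cytochrome oxidase and a nucleolar protein. Tuba3b stood at 133 CPM in WT and 18.9 CPM in knockout members, with 1119 and 274 CPM in the other barcodes. Lyar stood at 256 and 68.8 CPM, with 2442 and 600 CPM in the others. The exception was Tmsb4x, an actin-binding peptide abundant in blood cells, at 177 and 61.1 CPM. Without members that had 3 or more macrophage counts, a choice made after seeing the data, 15 genes were lower, and without called doublets 13. An estimate of free RNA was also subtracted, 15.01% of the other-barcode level in WT and 9.43% in the knockout library. It takes all elongating spermatid transcripts summed over members as free RNA, which was not tested. The median member held less of these markers (WT 6273, knockout 9745 CPM) than the pooled members (WT 14401, knockout 19356 CPM). The subtraction set 22 of the 26 genes to 0 in WT and 13 to 0 in both. The count of 2 lower genes left is therefore mostly set by the subtraction itself, while Tmsb4x kept 153 CPM in WT and 52.7 CPM in knockout members. Lyar's log2 ratio of 1.88 there compares 0 in WT with 12.1 CPM left in knockout members.

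**Figure D4:**
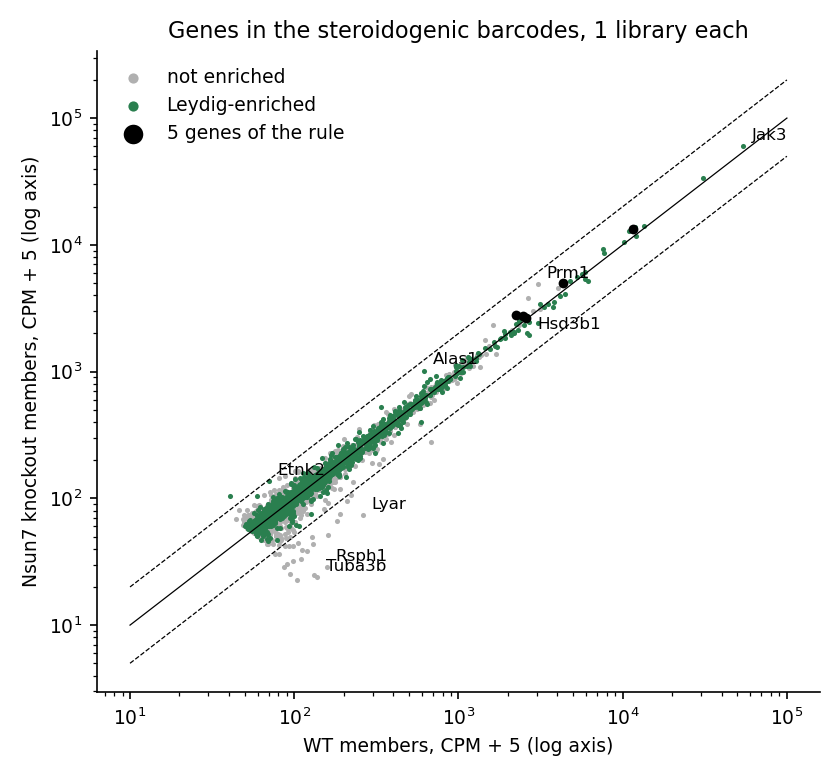
Level of each gene with a mean level of 50 CPM or above in WT members (x axis, CPM + 5, log axis) and Nsun7 knockout members (y axis, CPM + 5, log axis), 1 library each; the solid line marks equal levels and the dashed lines 2-fold. Leydig-enriched genes (green) lie near the solid line, and the 26 genes under the lower dashed line, with Tuba3b at 133 and 18.9 CPM, are not enriched (grey).

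Steroid synthesis was at similar levels in both libraries. The lists count genes with a mean level of 10 CPM or above that were at least 1.5 times apart, and over all 8651 such genes 48 (0.555%) were higher and 467 (5.4%) lower, with a median log2 ratio of -0.05. Of 18 steroid synthesis genes measured outside the rule, 1 was higher (Srd5a3, 10.8 and 18.8 CPM) and 1 lower (Cyp21a1, the adrenal 21-hydroxylase, 22.5 and 9.82 CPM), with a median of 0.08. Fdx1 and Fdxr, which feed electrons to Cyp11a1, were at 1144 and 1303 CPM and at 284 and 344 CPM. Por, the reductase partner of Cyp17a1, was at 106 and 132 CPM, and Cyb5a, which favours its lyase step, at 330 and 329.7 CPM. Hsd17b3 stood at levels of 998 CPM in WT and 1111 CPM in knockout members, a ratio of 1.11 (1.07 to 1.16). Hsd3b1 was lower, at 2680 CPM in WT (2632 to 2728) and 1926 CPM in knockout members (1890 to 1963), a ratio of 0.72 (0.70 to 0.74). Sult1e1, which sulphates oestrogens, was at 1021 and 882 CPM. Of the 18 genes, 16 lay within 1.5 times of WT. Cyp21a1, like Osbpl8 and Vegfa below, reached the mean of 10 CPM only through the library where it was higher.

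**Figure D5:**
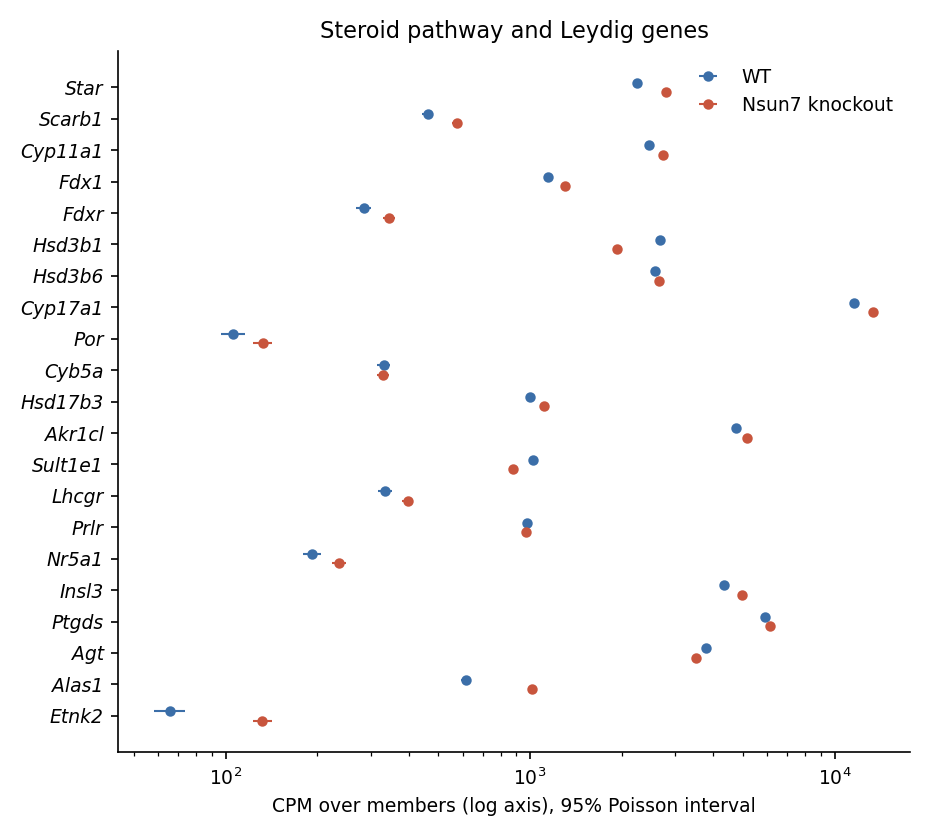
Level over members (x axis, CPM, log axis) of genes of the steroid pathway and further Leydig genes in the WT and the Nsun7 knockout library; points are library values and bars 95% Poisson intervals, which are mostly narrower than the points. Most pairs lie close together, with Hsd3b1 lower (2680 and 1926 CPM) and Alas1 and Etnk2 higher in the knockout library.

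Cholesterol supply was likewise close. Of 27 genes of cholesterol uptake, storage and transport, 0 were higher and 1 was lower (Osbpl8, 19.2 and 9.47 CPM), with a median log2 ratio of 0.02. Scarb1 stood at 461 CPM in WT and 576 CPM in knockout members, and Abca1, which exports cholesterol, at 306 and 223 CPM. Of 25 cholesterol synthesis genes, 0 were higher and 0 lower, with a median of 0.05. Msmo1, which removes methyl groups from sterols, was at 799 and 845 CPM.

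Hormone receptors and their signalling genes showed 0 higher and 0 lower of 24, with a median of -0.02. Lhcgr stood at 334 CPM in WT and 397 CPM in knockout members, a ratio of 1.19 (1.11 to 1.27), and Prlr, the prolactin receptor, at 976 and 967 CPM. Among 26 transcription regulators, Klf4 was higher (65.7 and 107 CPM) and Tbx3 (24.3 and 12.5 CPM) and Dbp were lower. Nr5a1 stood at 192 CPM in WT and 236 CPM in knockout members, a ratio of 1.23 (1.13 to 1.34). Of 20 secreted products, Ren1, the protease renin, was higher (17.2 and 33.8 CPM), as was Vegfa, a vessel growth factor (6.62 and 13.4 CPM). Of the 12 adult Leydig genes outside the rule, 0 were past 1.5 times, with a median of 0.017. The 6 stem, progenitor and fetal Leydig genes also had 0 past 1.5 times, with a median of -0.17.

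Stress-related lists are set beside all genes with a mean of 10 CPM or above, of which 0.555% were higher and 5.4% lower. Of 37 antioxidant genes, 0 were higher and Gpx3 was lower, with a median of 0.01. Of 20 genes of the unfolded protein response, 0 were higher or lower, and Hspa5, the main chaperone of the endoplasmic reticulum, was at 952 and 1131 CPM. Of 23 immediate early genes, which respond quickly to many stimuli, 3 were higher: Atf3 (19.6 and 53.8 CPM, a ratio of 2.74, 2.15 to 3.51), Klf2 and Klf4. Fos was at 782 and 853 CPM and Jun at 858 and 900 CPM. Of 9 genes of RNA m5C writers and readers, Nsun7 alone was past 1.5 times. Ybx1, which binds m5C in messenger RNA, stood at 979 CPM in WT and 803 CPM in knockout members, and Nsun2, a methyltransferase of transfer and messenger RNA, at 44.6 and 41.4 CPM.

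Marker lists of other cell types were compared in the same way. Of 8 macrophage markers measured, 7 were lower in knockout members, with a median log2 ratio of -1.48, and of 9 spermatocyte markers 7 were lower, with a median of -1.45. Of 6 round spermatid markers 3 were lower (median -0.55), and of 3 spermatogonium markers 1 (median -0.57). Of 8 Sertoli markers 2 were lower (Cst12, 60.4 and 14.8 CPM, and Defb36), with a median of -0.26. Of 10 stroma markers 1 was lower (C3, median -0.06), and of 4 peritubular myoid markers 0 passed 1.5 times (median 0.11). Of 13 elongating spermatid markers, 2 were higher (Prm1, 3030 and 4886 CPM, and Hspa1l, 83.2 and 145 CPM). In the other kept barcodes the summed spermatocyte markers stood at 8225 and 4476 CPM and the elongating markers at 95970 and 205266 CPM, the same directions as in the members. Round spermatid markers went opposite ways, at 391 and 332.0 CPM in members and at 3031 and 3612 CPM in the other barcodes. Without members that had 3 or more macrophage counts, the macrophage median was -0.08, but this choice uses the same transcripts that the median reads. Whether these transcripts came from free RNA or from other cells in the same droplet was not tested.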

How the data were processed

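Per the file headers and the labels' protocols, the authors deposited whole-number counts per gene and barcode for 1 WT and 1 Nsun7 knockout library, made with the DNBelab C series kit and PISA 0.12, with GRCm38 named in the submitters' processing notes. The sources used here do not give the aligner, annotation, strand rule or barcode filter. Totals were 220247156 counts in WT and 210531446 in the knockout library.

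Barcodes were filtered and members chosen as the report states. Counts were summed over members per library and scaled to CPM. Log2 ratios had 5 CPM added, and folds printed with an interval had none. Genes needed a mean of 50 CPM, or 10 CPM in lists. Leydig-enriched genes were at least 4 times higher in members than in other kept barcodes, without the 5 genes of the rule. Intervals were exact Poisson, conditional binomial or Clopper-Pearson at 95%. With 1 library per genotype no test was run. Doublets were called with Scrublet (scanpy 1.11.5) and kept. Tools were Python 3.11.15, numpy 2.4.6, scipy 1.17.1, pandas 2.3.3 and matplotlib 3.10.9. On simulated data, 56 of 56 genes changed by 3 times were called past 2-fold, and 0 of 2985 unchanged genes. The simulation drew Poisson counts from 1 shared profile, without spread between animals or cells and without free RNA. It checks the calculation only and gives no rate of false calls for these libraries.

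Genes named are the 15 with the highest ratio of members to others, the 10 highest and 10 lowest Leydig-enriched ratios, the 5 highest and 5 lowest of all genes (predicted, mitochondrial and ribosomal protein genes left out), the 8 most variable, and up to 4 abundant genes and the extremes of each list. The members, lists and Hsd3b split were chosen with earlier results of these data known.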

Additional observations from a re-analysis of the deposited data

Results flagged for a closer look

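Barcodes left out of the comparisons also carried the steroid signal. Of the barcodes that failed the filter on genes and mitochondrial counts, 35 of 1237 WT barcodes and 33 of 2968 knockout barcodes reached the share and count of the rule. Their median mitochondrial share was 26.8% (WT) and 26.0% (knockout). Without a limit on mitochondrial counts, a choice made after seeing the data, the members numbered 361 and 377.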

How the results depend on the processing

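No paired analysis was possible because the labels carry no replicate numbers and each genotype has 1 library. Under the stricter filter of 500 genes and 10% mitochondrial counts, members were 1.36% of WT and 0.987% of knockout barcodes, which turns the order of the shares. Then 23 genes were 2-fold higher and 41 lower, 2 Leydig-enriched genes were higher, and 11 genes of the function lists were lower, with log2 ratios of -0.030 for Fabp3, -0.15 for Lcn2, -0.093 for Ptgds and -0.087 for Hsd3b6. At a share of 1%, 9 genes were lower and Hsd3b6 was at -0.029. At 2%, members were 1.45% and 1.99%, 2 genes were higher and 7 lower, with Fabp3 at -0.0077, Ptgds at -0.055 and Hsd3b6 at -0.089. Without called doublets 2 genes were higher and 13 lower, with 2 Leydig-enriched genes higher. With every cell weighted alike, 10 function list genes were higher and 11 lower, and Gstm1 was at 0.0090. With trimmed means 2 genes and 2 Leydig-enriched genes were higher, and Gstm1 was at 0.068. With 20 CPM added, 2 function list genes were higher and 3 lower. At a minimum of 10 CPM, 4 genes were higher and 198 lower, with 2 Leydig-enriched genes higher, and at 200 CPM 0 and 1, with 0 Leydig-enriched genes higher. With the free RNA estimate subtracted, which takes all elongating spermatid transcripts in members as free, 5 were higher and 2 lower. Fabp3 was then at -0.026, Ptgds at -0.023, Hsd3b6 at -0.040, Cox8c at 0.035 and Lyar at 1.88. The subtraction sets 22 of the 26 lower genes, Cox8c and Lyar among them, to 0 in WT, so those lost calls and both turns come from its construction. Without members of 3 or more macrophage counts, a choice made after seeing the data, 15 were lower. The cause of the other changes was not tested. No Leydig-enriched gene was 2-fold lower under any of the 17 alternatives. The counts limit low genes, and without replicates the spread between animals is unknown.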
